A study of Mus musculus with 2 samples.

Results

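A set of 10 genes of the response to blood flow and of vascular tone were followed in the lungs of neonatal mice, out of the 27998 genes in the count tables. They were chosen by gene symbol for their known roles. Klf2 and Klf4 encode transcription factors that laminar flow induces in endothelial cells (ECs), and Nos3 encodes the endothelial nitric oxide synthase. Edn1 encodes the vasoconstrictor endothelin, Ece1 the enzyme that activates it, and Ednra and Ednrb its receptors. Gucy1a3 encodes a subunit of the guanylate cyclase that senses nitric oxide, Pde5a the enzyme that breaks down the cGMP it makes, and Ptgis the synthase of the vasodilator prostacyclin. In the vessel wall, flow over the endothelium raises Klf2 and Klf4, which raise Nos3 and lower Edn1. Nitric oxide and prostacyclin relax pericytes and smooth muscle, while endothelin contracts them through Ednra, and Ednrb on lung ECs releases relaxing factors and clears endothelin from the blood. These pathways take part in the fall of pulmonary vascular resistance after birth, and the enzyme Pde5a and the endothelin receptors are drug targets in pulmonary hypertension.

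Single-cell RNA sequencing was performed on whole lungs of wild type C57BL/6 mice (C57BL/6J in the study's methods) at postnatal day 14. Pups lived from birth (P0) to P14 either in room air (21% oxygen) or in hyperoxia (80% oxygen), a model of bronchopulmonary dysplasia. Each group was 1 library made from 8 pooled mice, so the spread between animals is not known, the library and the oxygen level cannot be told apart, and no test was made. The room air library held 39593888 unique molecular identifiers (UMIs, each a counted transcript) in 4234 barcodes and the hyperoxia library 111934936 in 13223, with 17 barcode sequences present in both. After filtering, 3680 room air cells (median 8057 UMIs) and 10472 hyperoxia cells (median 7231.5 UMIs) were kept. Levels are UMIs summed over the cells of a type and given as counts scaled to 1000000 UMIs of that type (CPM). The part of all UMIs of a gene that a type held also follows how many of its cells were kept. Paired values without further words are room air first, then hyperoxia. Their exact Poisson intervals, the intervals of ratios (hyperoxia over room air, on the log2 scale) and the Clopper-Pearson intervals of shares are at 95% and cover counting error only. A gene is said to have risen or fallen where its ratio was past 1.5-fold and the interval did not include 0. Orders of levels cover named cell types with at least 20 cells in the library, so lymph-like ECs (14 and 71 cells) stand in the hyperoxia orders and not in those of room air, and cycling and unnamed ECs in neither.

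The cell types were checked against their markers. ECs (1045 in room air and 2543 in hyperoxia) carried Cdh5 at 1891 and 1760.4 CPM, against 15.6 CPM in all other cells. Among them, gCap-like cells, the general capillary ECs (602 and 750 cells), had Gpihbp1 at 1275 and 774 CPM, and aCap-like cells, the aerocytes of the alveolar wall (152 and 1088 cells), had Car4 at 1693 and 1196 CPM. The other gCap markers moved both ways in gCap-like cells. Aplnr was at 312 and 123 CPM, Kit at 494 and 255 CPM, Plvap at 1037 and 906 CPM and Tek at 510 and 409 CPM. Cd93 was at 1733 and 2666 CPM and Sema3c at 1192 and 2410 CPM. The part of these markers in the gCap-like values below was not tested. Artery-like ECs (39 and 140 cells) had Gja5 at 643 and 674 CPM. Vein-like ECs (38 and 109 cells) had Slc6a2 at 1059 and 1736 CPM, with no UMI of the venous marker Ackr1 in either library. Pericyte-like cells (125 and 226) had Higd1b at 1538 and 1116 CPM, and smooth muscle-like cells (33 and 155) had Acta2 at 16755.5 and 19037 CPM but no UMI of Hhip.

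The libraries did not share all clusters. Of the gCap-like cells, 99.2% of those from room air lay in a cluster led by Wif1 and Kit, and 95.6% of those from hyperoxia in a cluster led by Ntrk2 and Sema3g, whose 10 leading genes held 2 gCap markers (Sema3c and Kit) and 2 artery markers (Cxcl12 and Gja4). Of the aCap-like cells, 65.8% from room air lay in a cluster led by Fibin and Emp2, and 55.5% from hyperoxia in a cluster led by Tbx2 and Slc12a2. Pericyte-like cells from room air lay mainly (76.0%) in a cluster led by Higd1b and Cox4i2. Those from hyperoxia lay mainly (57.1%) in a cluster led by Higd1b, Ndufa4l2 and Pdzd2. Another, led by Higd1b, Ndufa4l2 and Cox4i2, held 5.6% and 14.6% of the pericyte-like cells. A further pericyte-like cluster was led by Fabp7 and Col8a1, held 14.4% and 27.4% of the pericyte-like cells and had Acta2 at 4409 and 4894 CPM. It was named because the 8 pericyte markers were raised in it. Its 10 leading genes held none of these and held the vein marker Prss23. Whether it is another contractile type was not tested. Artery-, vein- and smooth muscle-like cells each came from 1 cluster that both libraries shared.

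In ECs as a whole, 9 of the 10 genes passed the lower limit of a mean of 10 CPM over both libraries. Klf4 and Nos3 rose in hyperoxia, and Gucy1a3 and Pde5a fell. That made 2 of 9 higher and 2 of 9 lower past 1.5-fold, where 6.52% of all 8436 genes tested were higher and 8.76% lower. The median log2 ratio of these 9 genes was -0.01, and that of all genes tested 0.01. Klf2, Edn1, Ece1 and Ednrb lay within 1.5-fold in ECs as a whole. The mix of EC types differed between the libraries, since gCap-like cells were 57.6% of room air ECs and 29.5% of hyperoxia ECs, and aCap-like cells 14.5% and 42.8%. With equal weight to gCap-, aCap-, artery- and vein-like cells, the log2 ratio of Ednrb was -1.03 in place of -0.01, that of Klf4 was 0.33 in place of 0.75, while Klf2 (-0.26) and Edn1 (0.20) changed sign. Gucy1a3 turned as well, from -1.26 to 0.51.

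The EC types and the contractile cells differed in which genes moved. In gCap-like cells 8 of the 10 genes passed the limit, with Klf4 and Nos3 higher (6.67% of all genes were) and Pde5a and Ptgis lower (9.99%), each of these directions turning in an alternative given with the gene below. In aCap-like cells 7 passed, with Klf4 and Nos3 higher (7.79%) and Edn1 and Ednrb lower (9.79%), with an interval of Nos3 that included 0 and a direction of Edn1 that turned with no doublets removed. Of the 9 genes that passed in artery-like ECs, Edn1, Nos3, Gucy1a3, Pde5a and Ptgis were past 1.5-fold higher (15.4%) and Ednrb lower (14.7%), the intervals of Gucy1a3 and Pde5a including 0 and the directions of these and of Ednrb turning in some alternatives. Vein-like ECs had none of 8 higher (17.9%), and Klf2, Edn1, Ednrb and Pde5a lower (17.8%), Pde5a on 10 and 11 UMIs and with a log2 ratio of 0.04 when thinned. Among 8 genes in pericyte-like cells, Klf4 was higher (9.39%) and Gucy1a3 and Ednrb lower (11.6%), the calls of Klf4 and Ednrb not holding without the cluster led by Fabp7. Among 8 in smooth muscle-like cells, Klf2, Ece1 and Ptgis were higher (14.4%) and none lower (16.4%), Ece1 turning in 3 alternatives.

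**Figure D1:**
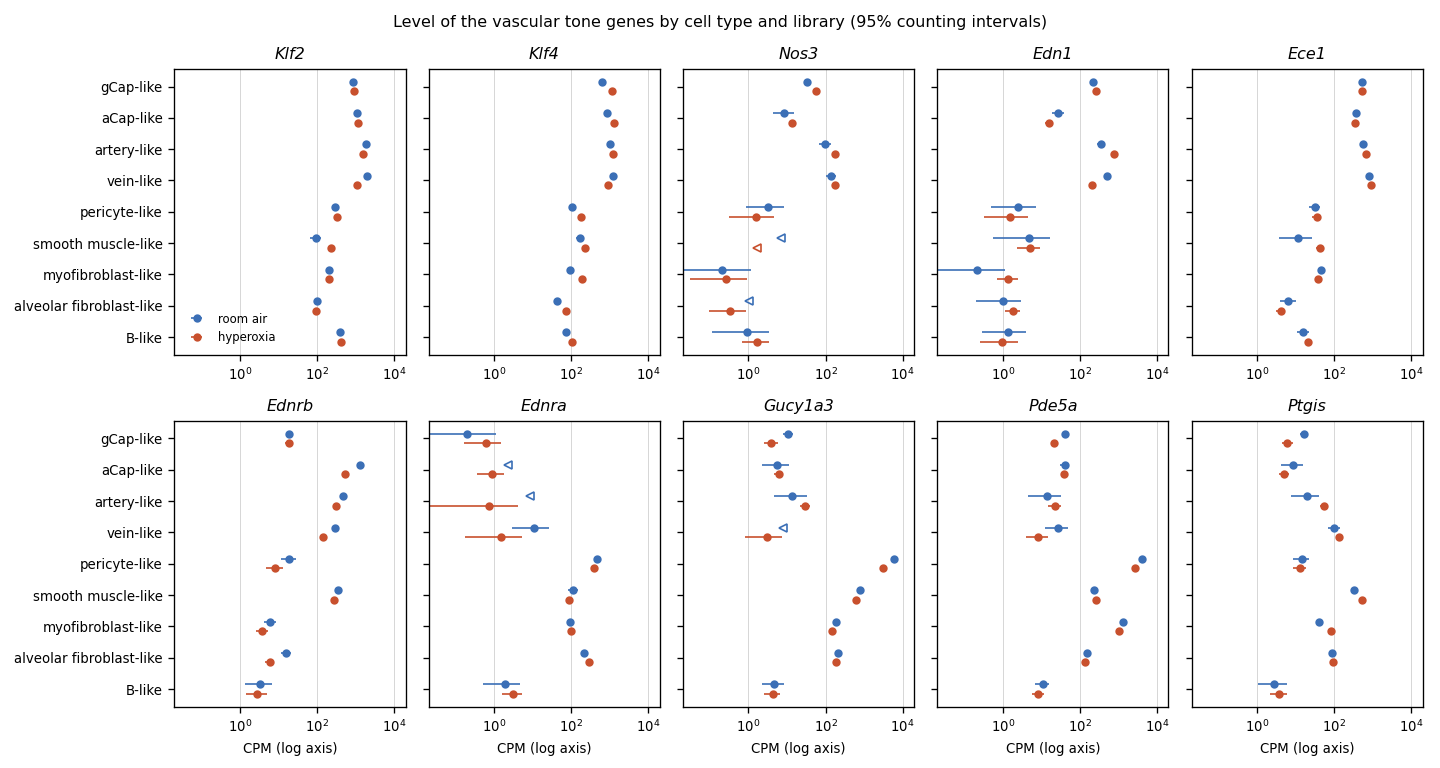
Level of each of the 10 genes in CPM (log axis) in 9 cell types, for room air (blue) and hyperoxia (orange), with exact Poisson 95% intervals over 1 library each; open triangles mark 0 UMIs and are drawn at the level of 3 UMIs. Klf2, Klf4, Nos3, Edn1 and Ece1 were highest in EC types, Ednrb in aCap-like cells, and Ednra, Gucy1a3 and Pde5a in pericyte-like cells.

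Klf2, which laminar flow induces most directly, was at 946 CPM in room air ECs and 1049.8 CPM in hyperoxia ECs, a log2 ratio of 0.15 (95% interval 0.11 to 0.19). ECs held 56.6% of all Klf2 UMIs in room air and 63.1% in hyperoxia. In vein-like ECs Klf2 fell from 1932 CPM (1795 to 2078) to 1086 CPM (1031 to 1143), for a log2 ratio of -0.83 (-0.96 to -0.70), and -0.90 to -0.67 under the alternatives. Artery-like ECs kept the top of the order while vein-like ECs went down it. In room air, vein-like (1932 CPM) and artery-like ECs (1914 CPM) overlapped at the top, above neutrophil-like cells (1101 CPM), which overlapped aCap-like (1080.3 CPM), and then gCap-like cells (839 CPM). In hyperoxia, artery-like ECs led at 1607 CPM, followed by aCap-like cells at 1185 CPM, and vein-like ECs overlapped neutrophil-like cells (1004 CPM), which overlapped gCap-like cells (929.6 CPM). Outside the endothelium, Klf2 rose in smooth muscle-like cells from 91.8 CPM (39 UMIs) to 233 CPM (417 UMIs), a log2 ratio of 1.34 (0.87 to 1.85). That ratio was 0.60 when each library was clustered on its own, 0.68 with stricter cell limits and 0.70 at the lower clustering resolution, where the type held 62, 97 and 101 room air cells.

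Klf4 was higher in hyperoxia in the capillary ECs, with calls that some alternatives did not keep. Over all ECs it went from 686 CPM to 1152 CPM, a log2 ratio of 0.75 (0.71 to 0.79), and in gCap-like cells from 620.2 CPM to 1176 CPM, a log2 ratio of 0.92 (0.86 to 0.98). The share of gCap-like cells with a Klf4 UMI was 87.0% and 95.7% (median depths 7845.5 and 8825 UMIs), and with each cell thinned to 2000 UMIs it was 60.5% of 593 cells and 79.5% of 750. B-like cells are no background for Klf4, which leukocytes can express. They showed it in 20.5% (median 4493 UMIs) and 21.4% (median 2867 UMIs), or 10.5% and 14.98% when thinned. In aCap-like cells Klf4 rose from 854 CPM to 1311 CPM (log2 ratio 0.62, 0.53 to 0.71), and lay within 1.5-fold at a doublet rate of 1.6% per 1000 barcodes (0.51), as a mean over single cells (0.53) and when thinned (0.57), while artery-like ECs had 994 and 1243 CPM (0.32, 0.16 to 0.49). Vein-like ECs went the other way, from 1223 to 914 CPM (-0.42, -0.58 to -0.26), a difference within 1.5-fold. Vein-like ECs were thus the highest in room air, ahead of artery- and aCap-like cells, which overlapped, and gCap-like cells. In hyperoxia, aCap-, artery- and gCap-like cells overlapped from each to the next, above vein-like ECs. The gCap-like value differed under alternatives in which fewer hyperoxia cells took that name. The log2 ratio was -0.01 at a doublet rate of 1.6% per 1000 barcodes (101 hyperoxia cells) and 0.27 with no doublets removed (123). It was 0.53 at resolution 2 (116) and 0.76 with the libraries clustered apart (229). The cause of these differences was not tested. Where both libraries shared the cluster led by Wif1 and Kit, Klf4 was at 614 CPM in 597 room air cells and 575 CPM in 33 hyperoxia cells. In the cluster led by Ntrk2 and Sema3g it was at 1234 CPM in 5 room air cells and 1200 CPM in 717 hyperoxia cells.

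Contractile and fibroblast types had less Klf4 than ECs. In pericyte-like cells it rose from 107.5 CPM to 176 CPM, a log2 ratio of 0.71 (0.42 to 1.01), and without the cluster led by Fabp7 the log2 ratio was 0.10. Myofibroblast-like cells showed a rise from 94.3 to 193 CPM (1.03, 0.88 to 1.19) and alveolar fibroblast-like cells one from 43.7 to 75.2 CPM (0.78, 0.51 to 1.06). Klf2 and Klf4 also respond to tissue dissociation, as do the immediate early genes. Of 17 such genes in ECs, 3 were past 1.5-fold higher and none lower, with a median log2 ratio of 0.24. Over all genes tested in ECs, 6.52% were higher and 8.76% lower. Fos stood at 585 and 714 CPM, Egr1 at 392.5 and 497.5 CPM and Atf3 at 149 and 177 CPM. In ECs without a UMI of Fos, Egr1 or Atf3 (17.7% in room air and 11.9% in hyperoxia, median depths 2821 and 2337.5 UMIs against 8122.5 and 8495 in the others), Klf4 was at 580.1 and 997 CPM, a log2 ratio of 0.78, and Klf2 at 865 and 887 CPM. These are the shallower cells, so a missing UMI does not show that the gene was off. In pericyte-like cells without such a UMI (10 and 17 cells), Klf4 was at 16.9 and 0 CPM. In vein-like ECs, where Klf2 fell and Klf4 was lower, 1 of the 17 genes was higher and 3 lower (median -0.17). Of all genes tested in these cells, 17.9% were higher and 17.8% lower. The 3 lower genes were Dusp1 (765 and 421 CPM), Nr4a1 (199 and 128 CPM) and Btg2 (379 and 248 CPM). Fos (1334 and 921 CPM) and Egr1 (593 and 433 CPM) were lower within 1.5-fold. Whether the handling of the lungs took part in these values was not tested.

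Nos3, the enzyme that makes nitric oxide in the endothelium, was a low transcript with 89.4% of its UMIs in ECs in room air and 95.3% in hyperoxia. Over all ECs it went from 36.4 CPM to 54.7 CPM, a log2 ratio of 0.59 (0.40 to 0.78) that lies at the 1.5-fold limit and was 0.38 as a mean over single cells. In gCap-like cells it rose from 33.0 CPM (28.2 to 38.5) to 57.0 CPM (51.4 to 63.0), a log2 ratio of 0.79 (0.52 to 1.06). Artery-like ECs showed a rise from 99.4 CPM (36 UMIs) to 172 CPM (237 UMIs), a log2 ratio of 0.79 (0.28 to 1.34). The share of artery-like ECs with a Nos3 UMI was 48.7% (median 7974 UMIs) and 69.3% (median 8582 UMIs), or 10.5% of 38 and 22.1% of 136 cells when thinned. In B-like cells the shares were 0.489% and 0.541%, or 0.270% and 0.266% when thinned. Vein-like ECs had 140.3 and 173 CPM and aCap-like cells 8.60 and 13.8 CPM, both with intervals of the ratio that included 0. In both libraries the order was vein- and artery-like ECs, which overlapped, then gCap-like cells, which overlapped lymph-like cells in hyperoxia, and further down aCap-like cells. Smooth muscle-like cells had no Nos3 UMI in 33 room air and 155 hyperoxia cells, a share of cells with a UMI of 0% with upper limits of 10.6% and 2.35%, and 3 UMIs would have been 7.06 and 1.67 CPM. In gCap-like cells at resolution 2 (116 hyperoxia cells) the log2 ratio of Nos3 was -0.13.

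Edn1, the endothelin gene, showed opposite changes in arteries and veins. Over all ECs it was at 187 and 177.5 CPM (-0.07, -0.16 to 0.01). In artery-like ECs it rose from 345 CPM (287 to 411) to 768 CPM (722.5 to 816), a log2 ratio of 1.15 (0.89 to 1.43), and under the alternatives this lay between 0.98 and 1.33. In vein-like ECs it fell from 498 CPM (429 to 574) to 208 CPM (184 to 234), a log2 ratio of -1.26 (-1.53 to -0.99), and -1.45 to -1.02 under the alternatives. The levels of the libraries did not overlap in either type. Edn1 was seen in 66.7% and 77.1% of artery-like ECs (39.5% of 38 and 56.6% of 136 cells when thinned), and in 68.4% and 62.4% of vein-like ECs (median 9851.5 and 12217 UMIs, 37.8% of 37 and 29.6% of 108 cells when thinned). B-like cells held it in 0.733% and 0.309% (0.541% and 0.266% when thinned). In room air the order was vein-like, artery-like, gCap-like (217 CPM) and aCap-like cells (27.4 CPM), with no overlap between neighbours, and the 14 lymph-like cells were at 42.0 CPM and cycling ECs at 88.3 CPM. In hyperoxia it was artery-like, gCap-like (260.3 CPM) and vein-like. The aCap-like level fell to 15.5 CPM (-0.82, -1.37 to -0.24), but was 0.18 on the log2 scale with no doublets removed and -0.03 as a mean over single cells. Artery-like ECs held 7.61% of all Edn1 UMIs in room air and 28.3% in hyperoxia. They were 1.06% and 1.34% of all kept cells, and gCap-like cells 16.4% and 7.16%.

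Summed markers from the lists of other cell types moved with the values in these small EC types. In artery-like ECs the summed level of 6 classical monocyte markers was 412 and 1074 CPM, with Fn1 the most abundant, while 7 markers of type II epithelial (AT2) cells stood at 307 and 468 CPM, led by Sftpc. The 8 alveolar macrophage markers there went from 27.6 to 192 CPM (Fabp4), the 8 pericyte markers from 11.0 to 67.5 CPM (Postn) and the 8 smooth muscle markers from 35.9 to 83.5 CPM (Tagln), beside the arterial values of Gucy1a3, Pde5a and Ptgis. In vein-like ECs the 8 pericyte markers went from 283 to 811 CPM, led by Rgs5, and the 8 alveolar macrophage markers from 1099 to 469.5 CPM, led by Fabp4. Both Rgs5 and Fabp4 were among the 10 leading genes of the vein-like cluster, so there they do not mark other cells alone. The part of these markers in the values of the 10 genes was not tested.

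Ece1, which cleaves the endothelin precursor, kept near the same level in ECs, with 503 and 491 CPM (-0.03, -0.09 to 0.02). It was highest in vein-like ECs (813 and 922 CPM) in both libraries. In room air, artery-like (549.6 CPM) and gCap-like cells (536 CPM) overlapped, followed by aCap-like (364 CPM) and type I epithelial (AT1-like) cells (276 CPM), with lymph-like cells at 420.4 CPM and cycling ECs at 402 CPM outside the order. In hyperoxia, artery-like ECs (680.2 CPM) stood above gCap-like cells (537 CPM). In smooth muscle-like cells Ece1 rose from 11.8 CPM to 43.0 CPM on 5 and 77 UMIs (1.87, 0.58 to 3.53). That direction turned in 3 alternatives, with log2 ratios of -0.72, -0.32 and -0.32 for clustering the libraries apart, stricter cell limits and resolution 0.5.

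Ednrb, the endothelin receptor of lung ECs, was above all a gene of aCap-like cells, which held 60.1% of its UMIs in room air and 65.8% in hyperoxia. There it fell from 1285 CPM (1224 to 1349) to 541 CPM (524 to 557), a log2 ratio of -1.25 (-1.33 to -1.17), and -1.41 to -1.07 under the alternatives. The share of aCap-like cells with an Ednrb UMI was 87.5% (81.2 to 92.3) and 68.8% (66.0 to 71.6), at median depths of 7019 and 7069.5 UMIs. Thinned to 2000 UMIs, it was 85.1% of 121 cells and 52.4% of 871 cells. B-like cells showed 1.47% and 0.927%, or 0.541% and 0.355% when thinned. The aCap-like clusters differed among themselves in hyperoxia, with 388 CPM in the cluster led by Tbx2 and Slc12a2, 433 CPM in the cluster led by Car4 and Tex14 and 893 CPM in the cluster led by Tmem255a and Fibin. In the cluster led by Fibin and Emp2, Ednrb was at 1359 CPM in 100 room air cells and 1682 CPM in the 6 hyperoxia cells there. The cluster led by Car4 and Tex14, which both libraries shared with 36 and 241 cells, had 903 CPM in room air. Some markers of these cells moved with Ednrb. The 7 aCap markers summed to 10604 and 7802 CPM, with Emp2 at 3686 and 1723 CPM and Fibin at 736 and 384 CPM. Car4 (1693 and 1196 CPM), Apln (696 and 597 CPM), Tbx2 (754 and 660 CPM) and Chst1 (250 and 187 CPM) were lower within 1.5-fold. Kitl was at 2788 and 3056 CPM. The 7 gCap markers summed to 1760.3 and 2425 CPM (Sema3c the most abundant). Their part in the Ednrb value was not tested.

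Ednrb was also lower in the larger vessels. In vein-like ECs it fell from 296 to 144 CPM (-1.04, -1.39 to -0.70), and in artery-like ECs from 483 to 321 CPM (-0.59, -0.85 to -0.33). The arterial value turned in 4 alternatives, to 0.03 with stricter cell limits, 0.01 with the libraries clustered apart, 0.11 as a mean over single cells and 0.20 when thinned. In gCap-like cells the receptor was at 19.1 and 18.3 CPM, but the log2 ratio of Ednrb in gCap-like cells ran from -0.13 to 2.19 under the alternatives, the highest at resolution 2. The smooth muscle-like cells held 351 and 276 CPM (-0.35, -0.61 to -0.07). Pericyte-like cells had 18.6 and 8.24 CPM on 23 and 16 UMIs (-1.17, -2.19 to -0.19), and 0.17 on the log2 scale without the cluster led by Fabp7. The order in room air was aCap-like, artery-like, then smooth muscle-like and vein-like cells, which overlapped, and the 14 lymph-like cells were at 305 CPM. In hyperoxia it was aCap-like, then artery-like, smooth muscle-like and lymph-like cells (223 CPM), each overlapping the next, and vein-like cells.

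**Figure D2:**
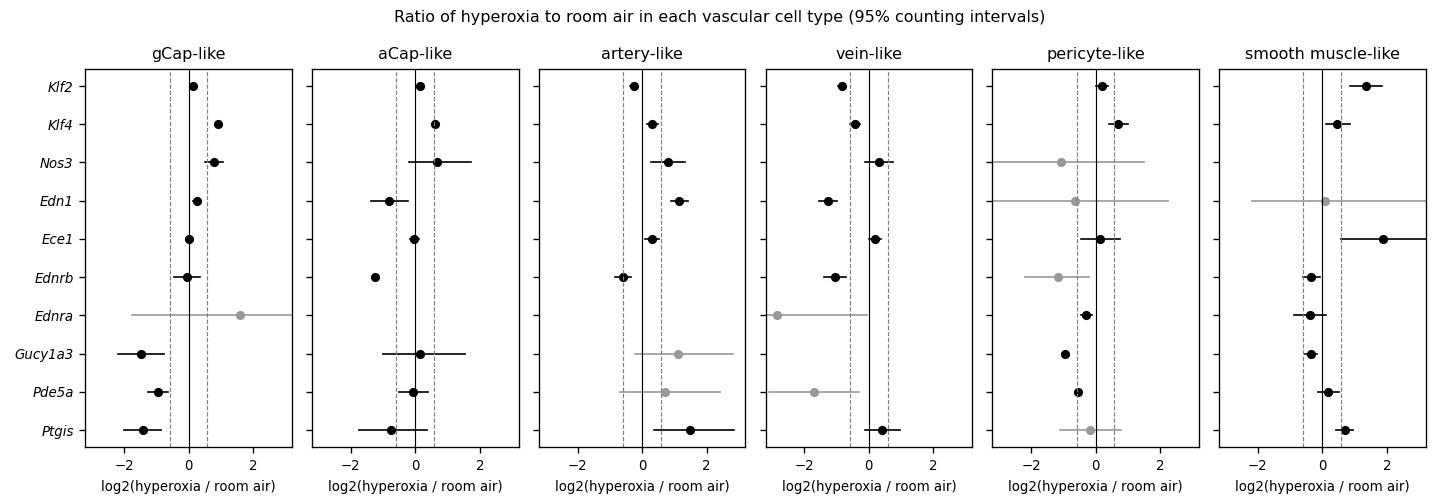
Log2 ratio of CPM, hyperoxia over room air, for the 10 genes in 6 vascular cell types with exact 95% intervals from 1 library per group; dashed lines mark 1.5-fold, grey points rest on under 50 UMIs over both libraries, and intervals stop at 3.2 on either side. Edn1 lies at 1.15 in artery-like and -1.26 in vein-like ECs, and Ednrb at -1.25 in aCap-like cells.

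Ednra, the contractile receptor of endothelin, was led by pericyte-like cells, with 466 CPM (428 to 505) and 383 CPM (356 to 411). The log2 ratio of -0.28 (-0.44 to -0.12) lay within 1.5-fold. A UMI of Ednra was found in 92.8% and 80.5% of pericyte-like cells (median depths 10107 and 8841 UMIs), or 58.6% of 116 and 47.0% of 198 cells when thinned, against 0.978% and 1.004% of B-like cells (0.270% and 0.709% when thinned). Over pericyte- and smooth muscle-like cells together, Ednra fell from 375 to 239.8 CPM (-0.64, -0.79 to -0.49), but smooth muscle-like cells made up more of the hyperoxia sum, and with equal weight to both types the log2 ratio was -0.30. Smooth muscle-like cells had 111 and 84.9 CPM. Alveolar fibroblast-like cells came next after pericyte-like cells in both libraries, at 220.4 CPM and 284.9 CPM (0.37, 0.25 to 0.49). They held 32.0% of all Ednra UMIs in room air and 57.9% in hyperoxia, while the part of pericyte-like cells went from 28.1% to 12.8%. Pericyte-like cells were 3.40% and 2.16% of all kept cells, and alveolar fibroblast-like cells 4.78% and 9.43% (176 and 988 cells), which these parts also follow. Below alveolar fibroblast-like cells, adventitial fibroblast-, smooth muscle- and myofibroblast-like cells overlapped in room air.

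Gucy1a3 marked pericyte-like cells more than any other type and fell there from 5818 CPM (5684 to 5954) to 3024 CPM (2947 to 3102), a log2 ratio of -0.94 (-0.99 to -0.89). Under the alternatives this lay between -1.20 and -0.81. The transcript was found in 98.4% and 96.9% of pericyte-like cells (94.8% of 116 and 91.9% of 198 when thinned), shares too near their upper end to show a change. In B-like cells the shares were 2.20% and 1.16% (1.62% and 0.887% when thinned). By cluster, Gucy1a3 was at 7160 CPM in the room air cluster led by Higd1b and Cox4i2 (95 cells). It was at 3931 CPM in the hyperoxia cluster led by Higd1b, Ndufa4l2 and Pdzd2 (129 cells), to which only 5 room air cells belonged (2294 CPM). The cluster led by Higd1b, Ndufa4l2 and Cox4i2 had 3827 CPM in 7 room air cells and 2422 CPM in 33 hyperoxia cells. The cluster led by Fabp7 and Col8a1 had 1057 and 1229.9 CPM. Smooth muscle-like cells came next in both libraries with 805 and 629.7 CPM (-0.36, -0.53 to -0.18), followed by alveolar fibroblast-like (213 and 191 CPM) and myofibroblast-like cells (191 and 151 CPM), which overlapped in room air. Pericyte-like cells held 74.1% of all Gucy1a3 UMIs in room air and 53.2% in hyperoxia, and were 3.40% and 2.16% of all kept cells. Over both contractile types the level fell from 4537 to 1875 CPM (-1.28, -1.32 to -1.23), and the log2 ratio was -0.86 with equal weights.

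In ECs, Gucy1a3 was low, at 16.1 and 6.74 CPM beside 4.68 and 4.27 CPM in B-like cells (-1.26, -1.61 to -0.90). With equal weight to the EC types the log2 ratio was 0.51. Of the EC groups, the cycling cells had 78.4 and 1.42 CPM. In the same cells 7 AT2 markers summed to 13866 and 464 CPM (Sftpc the most abundant), 6 erythroid markers to 6542 and 137 CPM (Hbb-bs) and 8 pericyte markers to 313 and 62.6 CPM (Postn), and their part in the EC value was not tested.

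Pde5a, which ends the cGMP signal, was also highest in pericyte-like cells, at 4004 CPM (3894 to 4117) and 2735 CPM (2662 to 2809). The log2 ratio of -0.55 (-0.61 to -0.49) lay just within 1.5-fold. It was -0.81 with the libraries clustered apart and -0.34 without the cluster led by Fabp7, in which Pde5a was at 535 and 595 CPM. Myofibroblast-like cells came next, with 1319 and 1029 CPM (-0.36, -0.41 to -0.31), and held 47.7% and 46.1% of all Pde5a UMIs, more than pericyte-like cells (37.8% and 30.4%). Smooth muscle-like cells had 238 and 271 CPM (0.19, -0.13 to 0.51), and no neighbours in this order overlapped. In both contractile types together Pde5a fell from 3042 to 1552 CPM (-0.97, -1.03 to -0.92), with a log2 ratio of -0.50 at equal weights. ECs had little of it, and it fell there from 43.3 to 28.2 CPM (-0.62, -0.81 to -0.42), but lay within 1.5-fold with equal weight to the EC types (-0.43) and in 5 other alternatives. The cycling ECs, whose AT2 markers are given above, had 104 and 34.8 CPM and aCap-like cells 40.6 and 38.8 CPM, and the part of the cycling cells in the EC value was not tested. In gCap-like cells it fell from 40.8 to 21.15 CPM (-0.95, -1.27 to -0.63), but at resolution 2 the log2 ratio was 0.21. B-like cells were at 10.8 and 8.29 CPM.

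Within pericyte-like cells, markers of other stromal types moved with these values. The 8 smooth muscle markers summed to 3544 and 6304 CPM, with Tagln the most abundant. The 7 myofibroblast markers went from 993 to 1779 CPM (Aspn) and the 8 alveolar fibroblast markers from 1150.2 to 449.7 CPM (Npnt). The pericyte markers themselves summed to 14864 and 12908 CPM, with Postn at 5291 and 5161 CPM. Cox4i2 went from 3215 to 1686 CPM and Pdgfrb from 1860 to 1181 CPM, while Rgs5 went from 537 to 1272 CPM. The other pericyte markers lay within 1.5-fold in either direction. The part of these genes in the Gucy1a3 and Pde5a values was not tested. Without the cluster led by Fabp7, Gucy1a3 still had a log2 ratio of -0.81.

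Ptgis, the prostacyclin synthase, was a gene of smooth muscle more than of endothelium. In smooth muscle-like cells it rose from 325 CPM (273 to 384) to 524 CPM (491 to 558), a log2 ratio of 0.69 (0.43 to 0.96), and 0.57 (just within 1.5-fold) to 1.01 under the alternatives. It was detected in 60.6% and 72.9% of these cells (median depths 12836 and 11410 UMIs), or 36.4% of 33 and 49.7% of 155 cells when thinned, against 1.47% and 1.24% of B-like cells (0.270% and 1.24% when thinned). Pericyte-like cells had only 14.5 and 12.9 CPM. The sum over both contractile types rose from 93.9 to 258 CPM (1.46, 1.21 to 1.71), and with equal weights the log2 ratio was 0.66. In myofibroblast-like cells Ptgis rose from 41.8 to 82.9 CPM (0.99, 0.76 to 1.23). Artery-like ECs showed 19.3 and 54.4 CPM on 7 and 75 UMIs (1.49, 0.38 to 2.86), and 0.28 on the log2 scale when thinned. In gCap-like cells the level fell from 16.3 to 6.15 CPM (-1.41, -1.99 to -0.85), though at a doublet rate of 1.6% per 1000 barcodes the log2 ratio was 0.06. In hyperoxia 34 mesothelial-like cells stood at 564 CPM and overlapped smooth muscle-like cells. After these, vein-like ECs (101 and 133 CPM), adventitial (99.7 and 103 CPM) and alveolar fibroblast-like cells (85.8 and 90.9 CPM) overlapped from each to the next in both libraries.

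Other genes of the same pathways were read in ECs by list, where 6.52% of all genes were higher and 8.76% lower. These levels are over all ECs, whose mix of types differed between the libraries, and no equal-weight values are given for the lists. Of 22 genes of flow sensing and KLF induction, 21 passed the limit, 2 were past 1.5-fold higher and 1 lower, with a median log2 ratio of 0.09. Adgrl2 (latrophilin, a flow-responsive receptor) was at 570.3 and 1117 CPM and Heg1, a partner of the cerebral cavernous malformation proteins, at 430.5 and 657 CPM, while the deacetylase gene Hdac7 fell from 264 to 174 CPM. Of 24 genes known to follow laminar flow or KLF2, 17 passed, 8 were higher and none lower, with a median of 0.53 beside 0.01 over all genes. These 8 included genes that KLF2 is known to lower, with Icam1 rising from 103 to 273 CPM and Vcam1 from 13.6 to 31.6 CPM, and the antioxidant gene Txnrd1, from 32.2 to 58.9 CPM. Thbd, the anticoagulant thrombomodulin that KLF2 raises, was at 716 and 1036 CPM, within 1.5-fold. By type, Thbd was at 1002 and 1067 CPM in aCap-like, 881 and 935 CPM in vein-like and 243 and 420 CPM in artery-like cells. Of 33 nitric oxide and cGMP genes 19 passed, 2 were higher and 3 lower, with a median of -0.03. Ddah1, which degrades an inhibitor of nitric oxide synthase, rose from 129 to 272 CPM and Hsp90aa1 from 456 to 731 CPM, while the natriuretic peptide receptors Npr3 and Npr1 fell from 210.3 to 119.6 CPM and from 137 to 91.4 CPM. The cyclase subunit Gucy1b3 (19.7 and 11.4 CPM) made the third, named after its value was seen. By type, Ddah1 was at 263 and 253 CPM in aCap-like, 44.2 and 134 CPM in artery-like and 37.1 and 257 CPM in vein-like cells.

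The remaining EC lists held fewer measured genes. None of 6 endothelin genes passed. Of 18 prostanoid genes 6 passed, with a median of 0.15, and the 1 past 1.5-fold was Ptgs2, the inducible cyclooxygenase, at 3.71 and 28.2 CPM, named after its value was seen. By type, Ptgs2 was at 68.8 and 381 CPM in vein-like ECs, on 26 and 517 UMIs. It had 0 and 14 UMIs in aCap-like cells and 1 and 10 in artery-like ECs. Of 41 other vasoactive receptors, peptides and channels 11 passed, 2 higher and 1 lower, with a median of -0.19. Adrb1 rose from 107 to 167 CPM, and P2ry2 (6.46 and 17.8 CPM) and Adora2a (16.0 and 8.14 CPM) were named after their values were seen. Among the 17 dissociation and immediate early genes above, Hspb1, Fosb and Zfp36 rose, with log2 ratios of 1.36, 0.88 and 0.75. Abundant genes of these lists lay within 1.5-fold, with the caveola gene Cav1 at 1080.5 and 860.4 CPM, the prostaglandin transporter gene Slco2a1 at 931 and 791 CPM, Hpgd, which inactivates prostaglandins, at 2113 and 1879 CPM and the adrenomedullin receptor gene Calcrl at 2580.2 and 2264 CPM. By type they differed more, since in aCap-like cells Hpgd fell from 2250.4 to 1101 CPM and Calcrl from 2954 to 1712 CPM, and in artery-like ECs Hpgd rose from 945 to 1745 CPM. The laminar flow list had 7 higher and 1 lower of 15 in gCap-like cells, 3 and 2 of 15 in aCap-like, 9 and 0 of 15 in artery-like and 4 and 1 of 19 in vein-like ECs. Over all genes 6.67%, 7.79%, 15.4% and 17.9% were higher in these types, and 9.99%, 9.79%, 14.7% and 17.8% lower.

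In pericyte-like cells, the genes around the cyclase and the endothelin receptors were read in the same way, where 9.39% of all genes were higher and 11.6% lower. Gucy1b3, the partner subunit of Gucy1a3, was at 2650 and 2048 CPM, a log2 ratio of -0.37. With it, 21 nitric oxide and cGMP genes passed, 4 higher (Hsp90aa1, Ddah1, Mrvi1 and Pde10a) and 1 lower (Pde2a), with a median of -0.06 beside -0.03 over all genes. Mrvi1, Pde10a and Pde2a, and Adra1b below, were chosen after their values were seen, and the intervals of Pde2a, Piezo1 and Ptges included 0. The endothelin gene Edn3 alone passed in its list and fell from 212 to 40.7 CPM (log2 ratio -2.38). Of 6 prostanoid genes 1 was lower (Ptges, 39.6 to 26.3 CPM, median -0.17), and of 14 other vasoactive genes 1 was higher (Kcnj8) and 2 lower (Adra1b and the potassium channel gene Kcnk3, median -0.08), Kcnk3 falling from 719 to 444 CPM. The flow sensing list had 2 of 21 higher (Piezo1 and Adgrl2, median 0.07) and the laminar flow list 6 of 16 higher and none lower (median 0.45), with Ccl2 rising from 19.4 to 145 CPM. Of 17 dissociation and immediate early genes 10 were higher and none lower, with a median of 0.62, and Egr1 was at 952 and 1647 CPM. Its part in the Klf4 value of these cells was not tested.

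Smooth muscle-like cells were read from only 33 room air cells, and 14.4% of all genes were higher in them and 16.4% lower. Of 19 flow sensing genes, Pkd1, Tmem63b, Map3k2, Map3k3 and Mef2d were past 1.5-fold higher and Plxnd1 and Ccm2 lower (median 0.15), and of 12 laminar flow genes 3 were higher and 4 lower (median 0.16), with Klf9 and Txnrd1 among the higher and Vcam1 among the lower. Among 16 nitric oxide and cGMP genes, Hsp90aa1 and Prkg1, the kinase that cGMP activates (70.65 and 128 CPM), were higher and Nosip and Qdpr lower (median 0.17). The 4 prostanoid genes had none higher, and Tbxa2r and Ptges2 lower (median -0.39), and no endothelin gene passed. Of 15 other vasoactive genes, Ace, Calcrl, Htr1b and Kcnma1 were higher and the potassium channel genes Kcnk3 (391 and 194 CPM) and Abcc9, with Rgs4, lower (median 0.20). The intervals of Tmem63b, Map3k3, Nosip, Qdpr, Tbxa2r, Ptges2 and Ace included 0. Those below the rule for named genes were chosen after their values were seen. Of the 17 dissociation genes 8 were higher and none lower (median 0.58), and 7 AT2 markers, led by Sftpc, summed to 198 and 649.8 CPM. Their part in the values of Klf2 and Ece1 was not tested.

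The pattern of each gene over cell types was compared with all other genes that reached 50 CPM, as the Pearson r of log2(CPM + 1) over 20 cell types in both libraries, 40 points that share 2 libraries and their depths. Nos3 was most like Ptprb (r = 0.94) and Tmem252 (0.92), and Edn1 most like Tmem2 (0.93) and Mmrn2 (0.92). The genes nearest Klf2 were Gnai2 (0.87) and Sertad1 (0.86), those nearest Klf4 were Adam15 (0.83) and Acvrl1 (0.80), and those nearest Ece1 were Shroom4 (0.89) and Slco2a1 (0.87). Ednrb had weaker neighbours, Olfml2a (0.79) and Reep1 (0.77). On the contractile side, Ednra was nearest Pla2r1 (0.96) and Wisp1 (0.95), Gucy1a3 its partner subunit Gucy1b3 (0.93) and Rasl12 (0.92), Pde5a Arhgap42 (0.91) and Tbx5 (0.91), and Ptgis Ltbp1 (0.92) and Bgn (0.91). Within the 10 genes, Nos3 and Edn1 had an r of 0.90, and Gucy1a3 and Pde5a one of 0.90.

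In the mouse genome (build GRCm38, GENCODE M21), Klf2 lies at chr8:72319033-72321656 (+), Klf4 at chr4:55527143-55532466 (-), Nos3 at chr5:24364810-24384474 (+) and Edn1 at chr13:42301476-42307990 (+). Ece1 lies at chr4:137862237-137965229 (+), Ednra at chr8:77663031-77724464 (-), Ednrb at chr14:103814625-103844402 (-), Gucy1a3 (Gucy1a1 in GENCODE) at chr3:82092427-82145789 (-), Pde5a at chr3:122728947-122859374 (+) and Ptgis at chr2:167191805-167240604 (-). RefSeq (GRCm38.p6) promoter windows, from 250 bases before to 50 after a start, were matched for 8 of the 10 genes (12 windows), all but Nos3 and Ptgis. The windows were searched on both strands for CACCC, the box that Krüppel-like factors bind, found in 8 windows of 6 genes and in 57.5% of all 32817 windows, and for ACGTG, the core of the hypoxia response element, found in 4 windows of 4 genes and in 19.6% of all. The MEF2 motif (CTA and TAG with any 4 bases between) was found in the Klf2 window and in 3.69% of all, and the AP-1 motif TGANTCA in none of the 12 and in 7.81% of all. Windows of 6 genes with a match are shown, to set the flow response pair beside the endothelin and cGMP genes, read 5′ to 3′ on the strand of the gene, with matches to any of these motifs in capitals (GGGTG and CACGT are the same motifs on the other strand, and CACGTG is ACGTG on both). They are chr8:72318812-72319111 (+), chr4:55532426-55532725 (-), chr13:42301226-42301525 (+), chr14:103843652-103843951 (-), chr3:82145024-82145323 (-, the other of 2 Gucy1a3 windows having no match) and chr3:122728908-122729207 (+), in the order of the lines. A match is a description of the sequence and was not tied to the levels.
Klf2: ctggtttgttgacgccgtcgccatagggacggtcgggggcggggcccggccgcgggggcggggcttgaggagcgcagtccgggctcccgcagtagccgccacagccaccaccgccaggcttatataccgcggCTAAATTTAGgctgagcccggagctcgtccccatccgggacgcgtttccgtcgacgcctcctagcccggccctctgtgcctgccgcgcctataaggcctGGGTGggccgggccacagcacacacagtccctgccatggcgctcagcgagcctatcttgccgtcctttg
Klf4: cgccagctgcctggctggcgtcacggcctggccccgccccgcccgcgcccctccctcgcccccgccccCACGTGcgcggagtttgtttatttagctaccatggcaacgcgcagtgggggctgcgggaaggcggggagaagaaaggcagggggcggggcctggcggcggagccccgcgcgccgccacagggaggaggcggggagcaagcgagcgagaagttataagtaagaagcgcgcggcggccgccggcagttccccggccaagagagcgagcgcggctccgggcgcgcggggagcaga
Edn1: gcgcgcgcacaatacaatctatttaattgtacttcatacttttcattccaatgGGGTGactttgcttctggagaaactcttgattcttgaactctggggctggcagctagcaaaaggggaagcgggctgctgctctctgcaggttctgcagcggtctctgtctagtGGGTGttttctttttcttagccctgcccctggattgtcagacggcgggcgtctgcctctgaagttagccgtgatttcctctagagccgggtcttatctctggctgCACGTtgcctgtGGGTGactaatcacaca
Ednrb: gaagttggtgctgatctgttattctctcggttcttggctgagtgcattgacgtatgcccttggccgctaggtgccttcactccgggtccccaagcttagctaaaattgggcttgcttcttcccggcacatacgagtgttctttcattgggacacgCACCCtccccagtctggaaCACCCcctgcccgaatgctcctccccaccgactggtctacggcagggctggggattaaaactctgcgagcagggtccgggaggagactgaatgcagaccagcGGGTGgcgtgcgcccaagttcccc
Gucy1a3: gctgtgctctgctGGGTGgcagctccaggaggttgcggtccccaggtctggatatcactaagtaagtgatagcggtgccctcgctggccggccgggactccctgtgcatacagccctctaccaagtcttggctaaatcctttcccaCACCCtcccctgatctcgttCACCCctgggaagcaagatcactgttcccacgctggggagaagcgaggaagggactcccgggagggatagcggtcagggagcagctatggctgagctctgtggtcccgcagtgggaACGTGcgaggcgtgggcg
Pde5a: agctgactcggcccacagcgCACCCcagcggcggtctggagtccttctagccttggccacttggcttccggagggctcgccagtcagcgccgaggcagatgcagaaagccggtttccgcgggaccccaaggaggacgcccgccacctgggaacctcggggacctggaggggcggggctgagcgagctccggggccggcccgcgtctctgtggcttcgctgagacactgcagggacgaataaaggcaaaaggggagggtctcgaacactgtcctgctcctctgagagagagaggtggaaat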

How the data were processed

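The authors deposited raw UMI counts per gene and cell barcode, made from the reads with Cell Ranger on mm10 before deposition. The extract protocol names Cell Ranger 6.1.1, the processing notes 2.1.1 and the matrix header software 3.1.0, and the labels name kit v2 where the methods name V3, which the files do not settle. Barcodes under 500 genes or above 20% mitochondrial UMIs were dropped. The barcodes most like simulated doublets (2 simulated per cell, 30 neighbours) were removed at 0.8% per 1000 barcodes, 129 (3.39%) from room air and 1239 (10.6%) from hyperoxia. After scaling each cell to 10000 UMIs, 2000 variable genes, 30 components, 20 neighbours and Leiden resolution 1 gave clusters, first of all cells and then within lineages.

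Clusters were named "X-like" where at least 3 fixed markers were raised (in at least 5% of cells, log2 difference at least 0.5). They stayed unnamed where the 10 leading genes held more markers of another type of the lineage than of their own. The same held for at least 2 leading markers of another lineage, if more than their own. Clusters with at least 2 leading cell cycle markers were called cycling. Those with few UMIs and no leading marker of their own stayed unnamed. The rule on leading genes was changed after the clusters and their leading genes were seen and before any level of the 10 genes was read. UMIs were summed over the cells of each type and library. Shares were repeated with each cell thinned to 2000 UMIs. Log2 ratios are of CPM, and 0.5 UMI was added to both sums for the counts past 1.5-fold. The intervals (95%) treat UMIs as independent.

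The genes and the lists (flow sensing and KLF induction, laminar flow or KLF2, nitric oxide and cGMP, endothelin, prostanoid, other vasoactive genes, dissociation and immediate early) were chosen with earlier results of these data known. Genes named are the 10, all dissociation genes, marker genes, and from each list the 3 with the highest mean CPM and up to 4 with the largest log2 ratio past 1.5-fold (mean CPM at least 20), as well as the 2 most alike in pattern to each of the 10. Tools were Python 3.11.15, numpy 2.4.6, scipy 1.17.1, pandas 2.3.3, scikit-learn 1.9.0, igraph 0.11.9, leidenalg 0.10.2 and edgeR 4.0.16 (TMM factors as an alternative), with seed 1. Sequences and coordinates came from RefSeq GRCm38.p6 and GENCODE M21.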

Additional observations from a re-analysis of the deposited data

Results flagged for a closer look

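Values are listed here where a gene was past 1.5-fold higher in 1 vascular cell type and past 1.5-fold lower in another, both with intervals that did not include 0 and at least 20 cells in each library. Pairs with a smaller ratio or an interval including 0 are not listed. The difference of the log2 ratios was 2.41 for Edn1 between artery-like and vein-like ECs, and 1.97 between artery-like and aCap-like cells. For Klf2 it was 2.17 between smooth muscle-like cells and vein-like ECs. For Ptgis it was 2.90 between artery-like and gCap-like cells and 2.096 between smooth muscle-like and gCap-like cells. The opposite direction was lost in some alternatives for the pairs with Ptgis in gCap-like cells (log2 ratio 0.0627 there at 1.6% doublets per 1000 barcodes) and with Edn1 in aCap-like cells (0.18 with no doublet removal), and Ptgis in artery-like ECs was 0.28 when thinned. None of these differences was tested, since no spread between animals is known.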

How the results depend on the processing

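The 16 alternatives, and 3 more chosen after seeing the data (without the unnamed endothelial clusters, without these and the cycling ECs, and without the pericyte-like cluster led by Fabp7), were each applied to the results they bear on, not to every result, and a ratio with no UMI in a library gave no value. Taking the log2 ratios of Klf2, Klf4, Nos3, Edn1, Ece1 and Ednrb over all ECs, of Ednra, Gucy1a3, Pde5a and Ptgis over both contractile types, and the numbers of all genes past 1.5-fold in ECs and pericyte-like cells, 95 values kept near their size and 45 moved. No value past 1.5-fold changed direction there, but over all ECs Klf2, Edn1, Ece1 and Ednrb, which lay within 1.5-fold, changed sign in some. Of the other values 615 kept near their size, 131 moved and 17 past 1.5-fold changed direction. For all values below the cause was not tested. No paired analysis was possible because each group is 1 pooled library. Depth limits what can be seen of Nos3 and other genes of few UMIs, and shares at 2000 UMIs leave out shallower cells.

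Log2 ratios that moved over all ECs were, with TMM factors, Klf2 0.23, Klf4 0.83, Ece1 0.0493 and Ednrb 0.0764. With the equal-weight mean of cell types they were Klf2 -0.26, Klf4 0.33, Edn1 0.20, Ece1 0.14 and Ednrb -1.03. As the mean over single cells they were Nos3 0.38, Ece1 -0.11 and Ednrb 0.20. Klf2 was 0.0351 in cells without Fos, Egr1 and Atf3, Edn1 -0.17 with no doublet removal, and Ednrb 0.0728 with 1.6% doublets per 1000 barcodes and 0.16 when thinned to 2000 UMIs.

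In mural-like cells (pericyte- and smooth muscle-like together), log2 ratios under stricter cell limits (1000 genes, 10% mitochondrial UMIs) were Gucy1a3 -1.21, Pde5a -0.86 and Ptgis 0.94. At resolution 0.5 they were Gucy1a3 -1.19, Pde5a -0.83 and Ptgis 0.93, and with the libraries clustered apart Gucy1a3 -1.15, Pde5a -0.86 and Ptgis 1.09. With TMM factors they were Gucy1a3 -1.19 and Pde5a -0.89. With the equal-weight mean of cell types they were Ednra -0.30, Gucy1a3 -0.86, Pde5a -0.50 and Ptgis 0.66. Pde5a was -0.85 when thinned to 2000 UMIs, and Gucy1a3 -1.33 without the cluster led by Fabp7.

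Values that reversed were Klf4 -0.0104 and Ptgis 0.0627 in gCap-like cells with 1.6% doublets per 1000 barcodes, and Nos3 -0.13 and Pde5a 0.21 in gCap-like cells at resolution 2. Edn1 in aCap-like cells was 0.18 with no doublet removal. Ednrb in artery-like ECs was 0.0266 under stricter cell limits (1000 genes, 10% mitochondrial UMIs), 0.00693 with the libraries clustered apart, 0.11 as the mean over single cells and 0.20 when thinned, and in pericyte-like cells 0.17 without the cluster led by Fabp7. Ece1 in smooth muscle-like cells was -0.32 under stricter cell limits (1000 genes, 10% mitochondrial UMIs), -0.32 at resolution 0.5 and -0.72 with the libraries clustered apart. Gucy1a3 was 0.51 in ECs with the equal-weight mean, and in artery-like ECs with the libraries clustered apart Gucy1a3 was -0.53 and Pde5a -0.94. Pde5a in vein-like ECs was 0.0395 when thinned to 2000 UMIs.

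Genes past 1.5-fold higher and lower in ECs (550 and 739) numbered 267 and 236 with a mean of at least 50 CPM, 2070 and 4469 with at least 1 UMI, and 147 and 228 past 2-fold. In pericyte-like cells (803 and 994) they numbered 270 and 286, 2947 and 3532, and 280 and 284. In ECs the laminar flow list had 8 genes higher, and 4, 12 and 3 under these limits. The share of all genes under each limit is not given here, so these counts are not read as a result about the list.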

Other observations

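Some levels lie outside the vessel wall. In NK-like cells (50 and 140 cells) Klf4 was at 28.8 CPM on 11 UMIs in room air and 234 CPM on 149 UMIs in hyperoxia, a log2 ratio of 3.02 (95% interval 2.14 to 4.05). It was seen in 16.0% and 21.4% of these cells, or 8.16% of 49 and 10.7% of 131 when thinned, at median depths of 7549.5 and 4087.5 UMIs. B-like cells showed it in 20.5% and 21.4%, at median depths of 4493 and 2867 UMIs, or in 10.5% and 14.98% when thinned. In the same NK-like cells 7 gCap markers summed to 26.2 and 130.3 CPM (Cd93 the most abundant), 7 AT2 markers to 396 and 912 CPM (Sftpc) and 8 markers of the endothelial lineage to 96.9 and 151 CPM (Pecam1), and their part in the Klf4 value was not tested. Mesothelial-like cells were present only in hyperoxia (34 cells), with Ptgis at 564 CPM (495 to 640.0). Edn3, the gene of another endothelin peptide, was at 212 and 40.7 CPM in pericyte-like cells.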
